A study of Mus musculus with 2 samples.

Results

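Strong matches to the CTCF motif that lie away from every CTCF binding site were collected in mouse embryonic stem cells (ESCs). A match is a stretch of 19 bp on chromosomes 1 to 19 (mm9) that scored at least as high as a random sequence would with a probability of 1e-06. It was kept when it lay more than 1 kb from every deposited CTCF peak. Of 87659 matches, 61834 (70.5%) met this rule, 21904 (24.99%) lay in a peak and 3921 (4.47%) lay within 1 kb of a peak but not in it. The peaks were called from the CTCF tags over the IgG tags, so the tag values of the matches outside peaks describe a group that was chosen on this contrast and were not tested. Beyond the motif score and the distance to peaks, neither sequence nor position entered the rule directly. The peaks rest on placed tags of 35 bp, so whether tags can be placed in a sequence may have entered through them. Shares of unique and of repeated sequence are therefore not independent of the rule.

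Both libraries came from R1/E ESCs grown with LIF that carry CTCF with a C-terminal LAP tag, which contains GFP, on a stably integrated BAC. Resistant clones had been sorted for GFP. Chromatin was crosslinked with 1% formaldehyde, sonicated to about 500 bp and precipitated with 5 ug of the GFP-antibody in 1 library and of goat IgG isotype control, which the labels also call input DNA, in the other. There is no replicate of either, no other genotype and no treatment, and the cell type rests on the labels because no expression was measured. The libraries held 8391191 CTCF and 7988889 IgG tags of 35 bp. Intervals cover counting error only, not the variation between cultures.

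CTCF is a zinc finger protein that binds a long, asymmetric DNA motif and, together with cohesin, anchors chromatin loops and boundaries. Its binding to the motif is known to be hindered by methylation of a CpG within it. In rodents, copies of the motif are known to have been spread by retrotransposons, among them B2 elements. DNA methylation was not measured here, and repeat families were not assigned.

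The sequences show how close to the bound motif a match outside peaks can be. The matrix was built from 192 sequences that the study named CTCF at RAD21 sites of ESCs, so its base frequencies are themselves those of occupied sites. All sequences are written 5′ to 3′ along the motif strand, and positions are counted from 1 at its 5′ end. The consensus, in capitals throughout, is
consensus: TGGCCACCAGGGGGCACTA
The matches outside peaks with the highest scores in uniquely mappable sequence are shown next with 5 bases on each side and the motif in capitals, followed by the highest scoring matches in peaks. They carry nearly the same letters.
Crh, outside, chr3:19594060-19594078, minus strand: ctcggTGGCCACCAGGGGGCGCTGgagag
Cblc, outside, chr7:20370294-20370312, plus strand: actagTGGCCAGCAGGGGGCGCTGggcag
Homer3, outside, chr8:72806859-72806877, plus strand: gtagcTGGCCAGCAGGGGGCGCTGggcag
Pnpla2, outside, chr7:148644428-148644446, minus strand: ggttaTGGCCAGCAGGGGGCACTGcaggt
near Slc35f5, in a peak, chr1:127504183-127504201, plus strand: gccttTGGCCAGCAGGGGGCGCTAtggca
near Adm, in a peak, chr7:117773860-117773878, minus strand: catggTGGCCAGCAGGGGGCGCTAcagcc
Most matches outside peaks look different. The 5 most frequent 19-base sequences among them share the 12 letters in capitals, at positions 4 to 15, and differ only outside these.
sequence 1: acaCCAGAAGAGGGCatca
sequence 2: actCCAGAAGAGGGCatca
sequence 3: acaCCAGAAGAGGGCgtca
sequence 4: actCCAGAAGAGGGCgtca
sequence 5: acaCCAGAAGAGGGCatcg

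A few sequences repeated many times over made up a large part of the motif matches outside peaks. Sequence 1 occurred 11173 times on chromosomes 1 to 19, of which 10159 copies lay outside peaks and 308 (2.76%) in a peak. Sequence 2 occurred 3232 times, with 60 copies (1.86%) in a peak. The 5 together made up 18675 of the matches outside peaks, or 30.2%. At the other end, 12903 of the 15517 different sequences outside peaks occurred there once. The core CCAGAAGAGGGC was held by 37128 of the matches outside peaks (60.04%) and by 5269 of those in peaks (24.1%), a difference of 36.0 percentage points (95% Newcombe interval 35.3 to 36.7). Of all matches with this core, 11.7% lay in a peak, against 39.1% of the matches without it. In uniquely mappable sequence these shares were 34.1% and 45.7%, so the difference was smaller there. The core was held by 25.9% of the unique matches outside peaks and 17.7% of those in peaks.

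Repetition was measured from the genome in a pair of ways. A match was called unique when at least 90% of the 35-mers starting within 150 bp of its centre, the length of a tag, occur once in the genome. Of the matches outside peaks 23187 (37.5%, 95% Wilson interval 37.1 to 37.9) were unique, against 18491 (84.4%, 83.9 to 84.9) of those in peaks. The flank, from 10 to 60 bp on both sides of the centre, was called repeated when its 16-mers occurred at least 20 times in the genome as a median. This held for 36175 matches outside peaks (58.5%) and 2369 in peaks (10.8%), with a median of 78.5 copies against 3.5. For sequence 1 the flank stood at 510 copies, the highest number the count can hold. Among unique matches the flank was repeated in 10.2% outside peaks and 3.19% in peaks, so the remaining comparisons are also given for unique matches. In the unique matches with a repeated flank the order of the core shares turned, with 54.5% outside peaks and 60.1% in peaks. Outside peaks, matches that were not unique had a mean of 0.394 IgG tags, against 0.927 at unique ones. How far the placing of tags set the shares of unique and repeated sequence was not tested.

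**Figure D1:**
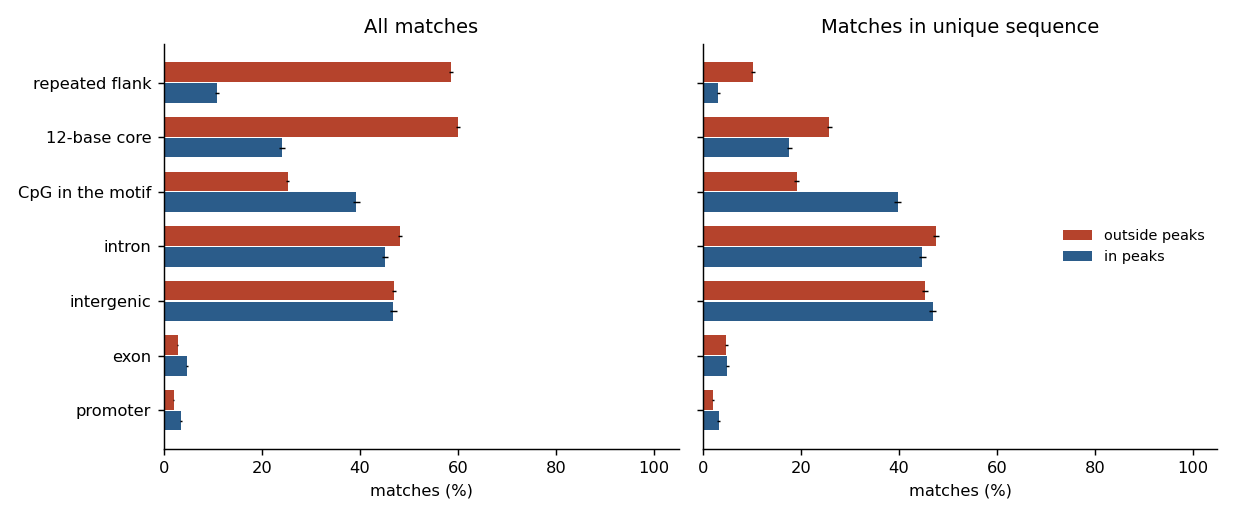
Share of matches in percent (x axis) that hold each feature (y axis), outside peaks in red and in peaks in blue, for all matches (left) and for matches in unique sequence (right), with 95% Wilson intervals as thin lines. The repeated flank and the 12-base core stand far apart between the classes on the left and less so on the right, while the CpG in the motif differs more on the right (19.2% against 39.8%).

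Matches outside peaks scored lower than matches in peaks, although both had passed the same threshold of 16.936 bits. The median score was 18.613 (order-statistic 95% interval 18.594 to 18.613) for unique matches outside peaks and 20.227 (20.174 to 20.261) for unique matches in peaks. The share of unique matches that lay outside peaks went from 71.9% (71.1 to 72.7) at scores below 18 to 22.1% (20.1 to 24.3) at scores of 23 to 24. It was 29.9% (27.8 to 31.97) at 24 and above, so even of the strongest 1895 unique matches 566 were outside. Matches that were not unique lay outside more often at every score, with 90.7% in the lowest and 55.2% in the highest range. Base by base, in unique matches without a repeated flank, position 7 was G in 79.0% outside peaks and 54.5% in peaks, and C in 18.6% and 43.5%. Position 8 was A in 60.7% and 36.8%. G and A are the letters of the shared core at these positions.

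A CpG within the motif was less frequent at matches outside peaks. It was present in 4458 of 23187 unique matches outside peaks (19.2%, 18.7 to 19.7) and in 7351 of 18491 in peaks (39.8%, 39.1 to 40.5), a difference of 20.5 percentage points (Newcombe interval 19.7 to 21.4). Over all matches the shares were 25.3% and 39.2%. Where the flank was repeated they were 29.02% and 34.8%, and where it was not they were 19.9% and 39.8%. By motif score, matches that were not unique had intervals of the difference that hold 0 in some ranges. It was 2.33 percentage points (-1.87 to 6.73) below 18 and 5.78 (-1.61 to 13.3) at 22 to 23. Among unique matches the difference was present in all 8 ranges of motif score. It was 21.2 percentage points (19.3 to 23.1) below 18, with 15.97% against 37.2%, and 12.01 (7.28 to 16.6) at 24 and above, with 30.2% against 42.2%. Most of it came from the C at position 15 and the G at position 16, which 12.05% of unique matches outside peaks and 32.8% of those in peaks held. A CpG at positions 18 and 19 went the other way, with 4.01% outside and 2.57% in peaks, a difference of 1.44 percentage points (1.10 to 1.78).

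**Figure D2:**
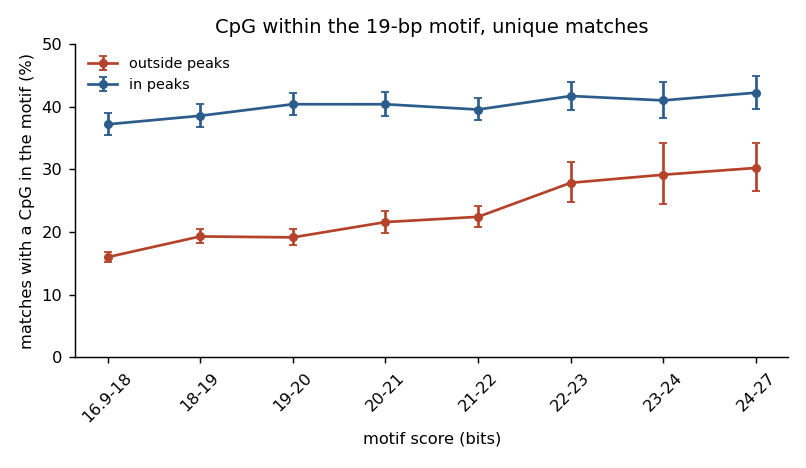
Share of unique matches with at least 1 CpG in the 19 bp (y axis, percent) by motif score in bits (x axis), outside peaks in red and in peaks in blue, with 95% Wilson intervals. The red line lies under the blue one in every range and rises from 15.97% to 30.2%, while the blue line stays between 37.2% and 42.2%.

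The same position could be compared between sequences that differ at no other base. There were 3 pairs of 19-base sequences with at least 100 unique copies each that differ by A16G, which makes the CpG at positions 15 and 16. The motif scores within a pair are almost equal, for example 21.162 bits with A and 21.263 with G in pair 1. The pairs are shown with the core in capitals, the form with A first.
pair 1, A: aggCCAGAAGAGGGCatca
pair 1, G: aggCCAGAAGAGGGCgtca
pair 2, A: aggCCAGAAGAGGGCactg
pair 2, G: aggCCAGAAGAGGGCgctg
pair 3, A: aggCCAGAAGAGGGCacca
pair 3, G: aggCCAGAAGAGGGCgcca
In pair 1, 362 of 1041 copies with A (34.8%) and 119 of 246 copies with G (48.4%) lay in a peak, a difference of 13.6 percentage points (6.76 to 20.4). In pair 2 the shares were 39.8% of 266 and 64.2% of 123, a difference of 24.4 points (13.7 to 34.1). In pair 3 they were 51.6% of 252 and 66.4% of 116, a difference of 14.8 points (3.92 to 24.8). The copy with the CpG was in a peak more often in all 3 pairs. Copies of 1 sequence share ancestry and the letters next to the motif, so they are not independent sites and the intervals are too narrow to that extent.

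In the wider surroundings, unique matches outside peaks and in peaks differed in CpG observed over expected and in GC content. The windows within 150 bp of the motif centre include the motif itself, so a CpG in the motif also counts in them. How much of the difference in CpG observed over expected came from the motif was not tested. CpG observed over expected within 150 bp had a median of 0.152 (0.151 to 0.154) at unique matches outside peaks and 0.209 (0.207 to 0.211) in peaks, and GC content 44.9% and 46.5%. Windows with a ratio of at least 0.6 and a GC content of at least 50%, the composition of a CpG island, made up 2.23% of unique matches outside peaks and 2.38% of those in peaks, and the interval of the difference, from -0.443 to 0.139 percentage points, holds 0. Over all matches the shares were 1.25% and 2.09%, and the interval of the difference, 0.643 to 1.06 percentage points, does not hold 0. Where the flank was repeated the order of the medians of CpG observed over expected turned, with 0.177 outside peaks and 0.166 in peaks. A further strong match within 150 bp was present at 0.712% of unique matches outside peaks and 2.49% in peaks.

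Gene context differed by a few percentage points, and distance to gene starts by more. Of the unique matches outside peaks 47.6% were in introns, 45.4% between genes, 4.86% in exons and 2.17% in promoters, taken as the 1 kb upstream of a gene start. In peaks the shares were 44.8%, 46.9%, 5.07% and 3.28%. The intron share was higher outside peaks by 2.82 percentage points (1.85 to 3.78). Over all matches with a repeated flank both orders turned. Introns held 50.2% outside peaks and 52.8% in peaks there, and intergenic sequence 46.9% and 41.3%. Among unique matches the promoter share was lower outside peaks by 1.10 percentage points (0.788 to 1.43). For exons the interval of the difference, from -0.639 to 0.202, holds 0. Over all matches exons held 2.80% outside peaks and 4.70% in peaks, a share lower outside by 1.89 percentage points (1.59 to 2.21). Unique matches outside peaks lay at a median of 36604 bp (35773 to 37587) from the nearest start of a protein-coding gene and those in peaks at 24735 bp (24220 to 25466). Among all matches these medians were 26599 and 22933 bp. The share of unique matches that lay outside peaks ranged from 48.6% on chromosome 11 to 58.3% on chromosome 12.

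CTCF tags were present at many of the matches outside peaks, at a level far below that in peaks. Tags were moved by 92 bp to the centre of the fragment and counted within 150 bp of the motif centre. Unique matches outside peaks had a median of 2 CTCF tags (quartiles 1 and 5, highest 18) and 1 IgG tag (0 and 1, highest 8). Unique matches in peaks had a median of 17 CTCF tags (13 and 23, highest 112) and 1 IgG tag. Windows of the same length tiled over chromosomes 1 to 19 at more than 1 kb from every peak, 7620070 in number and not chosen for unique sequence, had a mean of 0.879 CTCF and 0.973 IgG tags. The mean was 2.98 CTCF and 0.927 IgG tags at unique matches outside peaks and 18.4 and 1.08 in peaks. Scaled by library totals, CTCF over IgG was thus 3.06 (exact 95% interval 3.01 to 3.11) outside peaks, 16.2 (16.01 to 16.5) in peaks and 0.860 in the tiled windows. Over all 61834 matches outside peaks the means were 2.19 and 0.594 and the ratio 3.51 (3.47 to 3.55). Matches that were not unique had fewer tags in both libraries, with means of 1.71 and 0.394. How the study's alignment treated tags with several places is not given in the sources used here, so a tag in repeated sequence cannot be assigned to 1 copy.

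**Figure D3:**
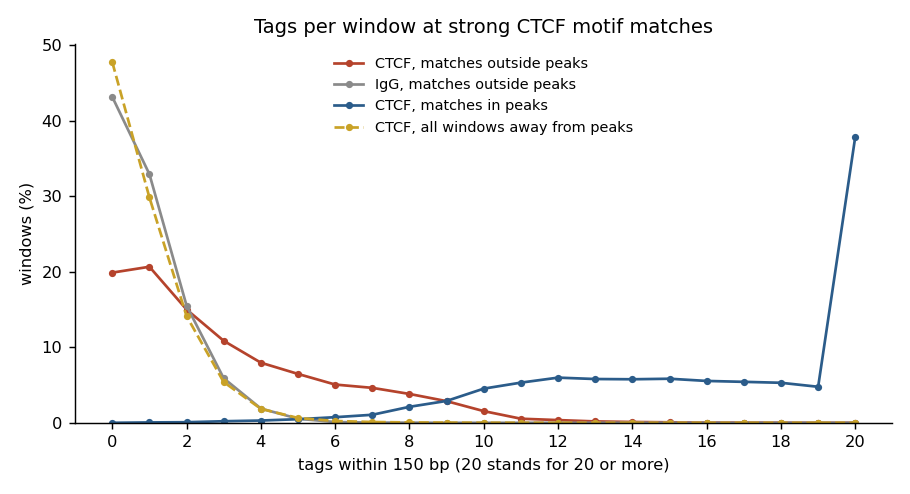
Share of windows in percent (y axis) by the number of tags within 150 bp of the centre (x axis), with 20 standing for 20 or more. CTCF at unique matches outside peaks (red) extends to higher counts than IgG at the same matches (grey) and than CTCF in all windows away from peaks (dashed), and overlaps the low end of CTCF at unique matches in peaks (blue).

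A window counted as having CTCF excess when it held at least 5 CTCF tags and, with 1 tag added to each library, at least 3 times the IgG tags at equal depth. This was met by 6971 of the 61834 matches outside peaks (11.3%) and by 4064 of the 23187 unique ones (17.5%, 17.04 to 18.02), while 0.433% of the tiled windows met it. The reverse, IgG over CTCF, was met by 40 matches outside peaks (0.0647%) against 0.612% of the tiled windows. Of the unique ones 37 met it (0.160%). In peaks 96.1% of matches had CTCF excess. Since the peaks took out the windows with the most tags, these shares describe what the peak threshold left behind. At least 10 CTCF tags were held by 663 unique matches outside peaks (2.86%) and by 92.1% in peaks. No tag of either library was found at 2229 unique matches outside peaks (9.61%, 9.24 to 9.999) and at 26.9% of the others, against 25.9% of the tiled windows.

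Matches outside peaks with a higher motif score also had more CTCF tags. Unique matches scoring below 18 had a mean of 2.19 CTCF tags (SEM over matches 0.0260, n = 8623) and those scoring 24 and above 5.25 (0.127, n = 566). The IgG mean was 0.995 in the lowest and 0.792 in the highest range, and the ratio went from 2.09 (2.04 to 2.15) to 6.31 (5.71 to 6.99). In peaks the CTCF mean was nearly level, between 17.8 and 19.3. Unique matches outside peaks with a CpG in the motif had a mean of 3.83 CTCF tags and a ratio of 4.73 (4.56 to 4.91), and those without had 2.78 tags and a ratio of 2.74 (2.70 to 2.79). Among these unique matches the mean was 3.39 tags with the core and 2.84 without it.

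**Figure D4:**
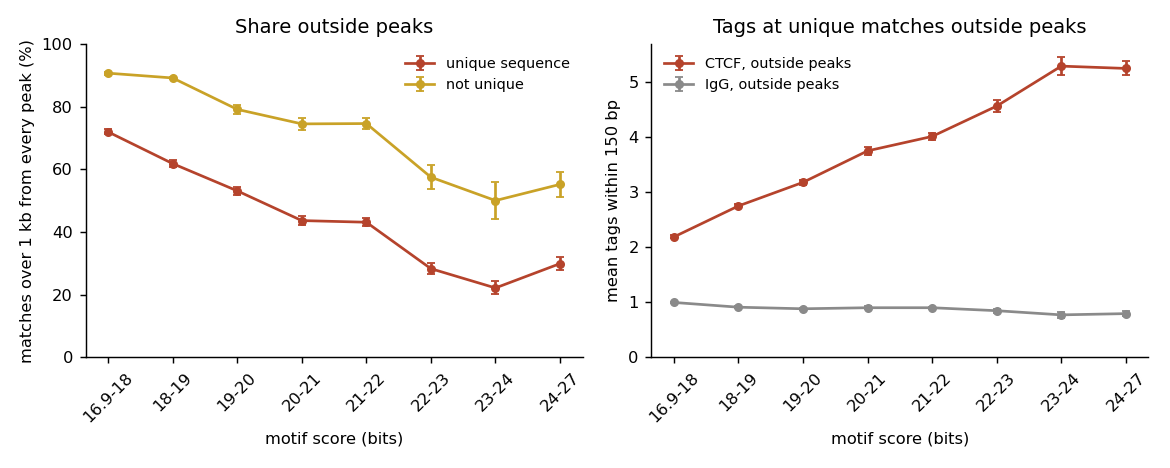
Left, share of matches that lay more than 1 kb from every peak (y axis, percent) by motif score in bits (x axis), for unique and not unique matches, with 95% Wilson intervals. Right, mean tags within 150 bp at unique matches outside peaks, with the SEM over matches, where CTCF rises from 2.19 to 5.25 and IgG stays below 1.

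The tags outside peaks had their maxima at the same distances from the motif as in peaks. Per 1000 unique matches outside peaks and per 50 bp, CTCF tags were highest from 50 to 100 bp 3′ of the motif centre, at 794, and came to 591 from 50 to 100 bp on the 5′ side. Between 500 and 1000 bp away the mean was 221. Further maxima stood at 300 to 350 bp, with 429 tags 5′ and 353 tags 3′ of the motif, against 209 and 226 in the bins beyond. In peaks the bins of the maxima were the same, with 4211, 3980, 2259 and 1526. At the centre itself, within 50 bp, CTCF fell to 326 and scaled IgG to 144 outside peaks, where IgG further out was 179. The IgG library was not flat in peaks either, with 356 at 100 to 150 bp on the 5′ side against 161 further out. The distances depend on the shift of 92 bp, taken from a distance of 184 bp between tags of the 2 strands at the 1000 highest scoring peaks. CTCF sites are known to lie among regularly spaced nucleosomes, whose positions were not measured here.

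**Figure D5:**
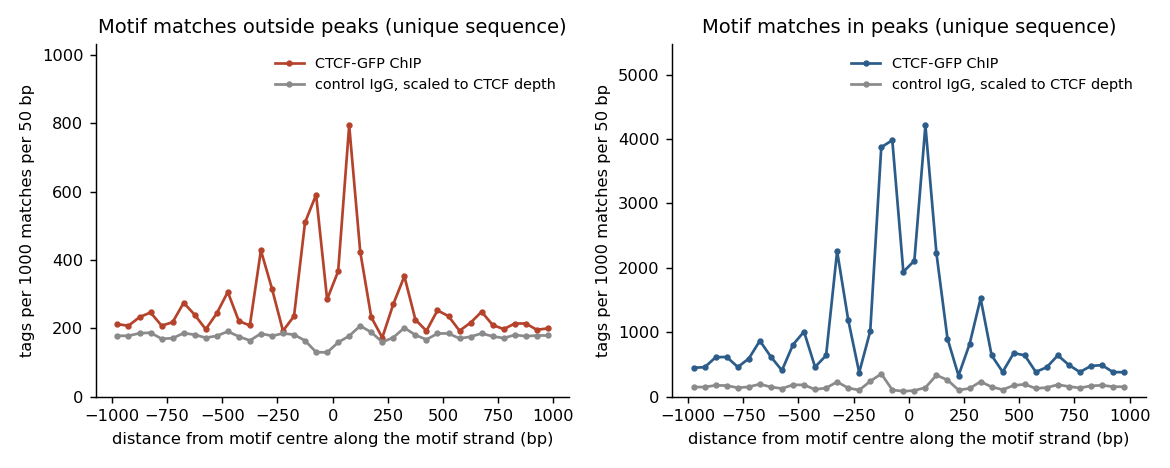
Tags per 1000 unique matches per 50 bp (y axis) by distance from the motif centre along the motif strand (x axis), for CTCF and for IgG scaled to the depth of CTCF, outside peaks (left) and in peaks (right). The axes differ in height, and the maxima on both sides of the motif, up to 794 on the left and 4211 on the right, fall in the same bins.

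The values next to the limits of the rule were as follows. Matches scoring within 0.5 bits above the motif threshold had a ratio of 2.13 outside peaks and sequences within 0.5 bits below it 1.94. By distance, the ratio was 4.65 for matches 1 to 2 kb from a peak, 5.01 for those beyond 500 bp and up to 1 kb, which the rule left out, and 2.78 for the 7529 matches over 100 kb from any peak. The median distance to the nearest peak was 18294 bp, with quartiles of 7161 and 46493 bp. The BAC carries Ctcf, and 3 matches outside peaks lay within 100 kb of this gene, with a mean of 5.33 CTCF and 2.33 IgG tags.

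The 8 strongest unique matches outside peaks had between 3 and 10 CTCF tags. The match in an exon of Crh, which encodes corticotropin-releasing hormone, had 5 CTCF tags and 1 IgG tag and lay 1677 bp from a peak. The match in an intron of Cblc, an E3 ubiquitin ligase gene, had 4 and 0, and the one in an exonic UTR of Homer3, a postsynaptic scaffold gene, had 5 and 0. In an intron of Pnpla2, which encodes a triglyceride lipase, there were 3 and 0. These CTCF counts lie above the mean of 0.879 of the tiled windows, which were not chosen for unique sequence. They lie below the mean of 5.25 of unique matches outside peaks that scored 24 and above. The other 4 of the 8 strongest had 3 to 10 CTCF tags and at most 1 IgG tag, with 10 at the match 9432 bp downstream of the start of Odc1, the gene of ornithine decarboxylase. For comparison, the 4 highest scoring matches in peaks had 9 to 11 CTCF tags and 0 to 2 IgG tags. The Odc1 match lay within the range of these 4, which were themselves below the lower quartile of 13 CTCF tags of unique matches in peaks. Like the Crh match, the Odc1 and Cblc matches stood near a peak, at 1864 and 1674 bp. The rest of the 8 strongest lay 8941 to 254621 bp from a peak.

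The most CTCF tags at a unique match outside peaks were 18, at an intron of Pid1 (2 IgG tags) and between genes near Ces1h (5 IgG tags). Their sequences are given because they depart from the core of the frequent copies, with the motif in capitals.
Pid1, outside, chr1:84150701-84150719, minus strand: tgtctTATCCTCCAGGGGGCGCTGtccta
near Ces1h, outside, chr8:95939462-95939480, plus strand: cccatAGGCCTCTAGGGGGCGCTAcagga
The next 3, near Ube2v1, Kdm4c and Ppie, had 17 CTCF tags and 4, 7 and 6 IgG tags. IgG tags were thus also above their mean of 0.927 at all 5.

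Near gene starts the classes stood apart over all matches and less so in unique sequence. Within 1 kb of the start of a protein-coding gene lay 1113 matches outside peaks (1.80%) and 722 in peaks (3.30%), a difference of 1.496 percentage points (1.24 to 1.76). Among unique matches the shares were 2.78% and 3.28%, a difference of 0.4999 percentage points (0.169 to 0.835). Where the flank was also not repeated they were 3.03% and 3.35%, and the interval of the difference, from -0.0295 to 0.674, holds 0. Of those with the highest score, the match 943 bp upstream of Gpr81, a lactate receptor gene, had 10 CTCF tags and 2 IgG tags. There were 7 and 0 near Kctd15, 6 and 1 near Nrxn2, 5 and 0 in Homer3, 4 and 0 near Zranb1 and 3 and 0 near Reps1. Over the 517 unique matches outside peaks in CpG-rich windows, as defined above, the IgG mean was 0.215 tags, well under the 0.927 of all unique matches outside peaks. The CTCF mean there was 2.63, and 20.9% had no tag of either library. IgG was thus lower by far more than CTCF, and the ratio in these windows was 11.7 (9.61 to 14.3) against 3.06 for all unique matches outside peaks. The part of base composition in this was not tested.

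Matches outside peaks were looked up near genes of 3 lists, for pluripotency, lineage regulation and the germline. Most genes of each list had at least 1, as had most protein-coding genes at large, but lineage regulators had fewer per gene. Within 25 kb of the start, 18 of 21 pluripotency genes found on chromosomes 1 to 19 had at least 1 match outside peaks, 13 of 19 lineage regulators and 12 of 15 germline genes. Over all 21418 protein-coding genes the share was 77.2%, next to 85.7%, 68.4% and 80.0% in the lists. The mean number of matches outside peaks per gene was 2.31 over all protein-coding genes, next to 3.10, 0.947 and 2.47. In peaks it was 0.935, next to 1.95, 1.32 and 0.933. Pou5f1, which encodes Oct4, had 5 matches outside peaks with 2 to 7 CTCF tags, none of them unique, and 6 in peaks. Nanog had 3 with 0 to 3 CTCF tags, none unique, and 7 in peaks. Dppa4 and Sall4 had 8 each, with up to 10 and 6 CTCF tags, and none in peaks. Klf4 and the lineage gene Pax6 had none of either kind, and Sox2 had 2 in peaks only.

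The highest scoring of the matches near these genes stood near a mesodermal regulator, a meiotic gene, a neural regulator and a pluripotency gene. The match 13481 bp upstream of T, the Brachyury gene, had 9 CTCF and 4 IgG tags and lay 1814 bp from a peak. The other matches of this paragraph lay at least 10014 bp from a peak. The match in an intron of Sycp1, a component of the synaptonemal complex, had 2 and 0, and its flank was repeated 66 times. In an exon of Neurog2, a proneural gene, there were 8 and 0 tags, and 23698 bp downstream of the start of Dppa3, which encodes Stella, 5 and 0. The last pair is shown with the motif in capitals, since its surroundings are unique.
Neurog2, outside, chr3:127337180-127337198, plus strand: gccggTGGCCTCCAGGGGGCGCTCttcac
near Dppa3, outside, chr6:122600117-122600135, plus strand: attggAGGCCAGGAGAGGGCGCTAgatcc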

How the data were processed

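R1/E ESCs with CTCF-GFP on a BAC gave 1 CTCF library and 1 IgG library. The tag files deposited by the authors list every 35 bp tag on mm9 with a count of 1. For CTCF the authors also deposited peaks made by MACS 1.4beta, whose score is the p-value over IgG on a -10 log10 scale, and summits, whose signal is the pileup in tags. The aligner is not given in the sources used here. No position and strand was repeated. The summit signal was read for its position only. Depth was 8391191 CTCF and 7988889 IgG tags.

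Computation used numba 0.67.0, numpy 2.4.6, pandas 2.3.3, scipy 1.17.1 and matplotlib 3.10.9 in Python 3.11.15. The matrix took a pseudocount of 1 and a background of 0.21 per C or G and 0.29 per A or T, with exact thresholds for its scores. The sheet of motif sequences was held in part, and 192 sequences named CTCF came from it. Genome and genes were NCBI m37 and GENCODE M1, which match mm9. Shares carry 95% Wilson intervals, their differences Newcombe intervals, ratios exact intervals and medians order-statistic intervals, all for counting error alone. No p-value was computed, since there is 1 library per antibody and the peaks were called on the same contrast. Matches were treated as independent, which copies of a repeat are not.

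Named matches were the 8 unique ones outside peaks with the highest score, the 5 unique ones with the most CTCF tags, the 8 highest scoring within 1 kb of a protein-coding gene start, the 4 highest scoring in peaks, the 5 most frequent sequences, and the 4 highest scoring near genes of the 3 lists, without chromosome 18. Some named matches are not reported here. Pairs with A16G, the core and the bases at single positions were chosen after the values were seen. The members and lists were chosen with earlier results of these data known. Masked repeats could not be used, since the genome file is not masked, and copies of flanking 16-mers took their place after the data were seen. The scan, the 35-mer counts and the intervals were tested on simulated data.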

Additional observations from a re-analysis of the deposited data

How the results depend on the processing

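Of 44 alternatives to 12 results, 7 left the value within its counting interval or, for the number of matches, within 1.5 times, and 37 moved it further. The number of matches outside peaks, 61834, became 9834 at a motif threshold of 1e-07 and 39079 with even base frequencies of 0.25. The ratio of 3.51 stayed above 1 throughout, with 2.40 within 250 bp, 3.91 scaled by tags outside peaks, 3.06 at unique matches, 3.36 at more than 5 kb from peaks, 5.00 at 1e-07 and 2.37 without a tag shift. The share with CTCF excess, 11.3%, became 14.4% at a ratio of 2, 12.9% within 250 bp, 17.5% at unique matches and 10.7% at more than 5 kb. The unique share of 37.5% outside peaks became 82.4% when 50% of the 35-mers sufficed. The median share of 35-mers that occur once was 76.7% per match outside peaks and 100% in peaks. A match that was not unique could thus still hold many such 35-mers. A CpG in the motif, 25.3%, became 19.2% at unique matches and 25.7% at 1e-07, and CpG observed over expected, 0.167, became 0.152 at unique matches. With promoters of 5 kb, introns held 45.4%, intergenic sequence 40.9%, exons 2.40% and promoters 11.3%, and with protein-coding genes only 46.4%, 50.0%, 2.56% and 1.09%. The following were added after the data were seen. Without the core the ratio was 2.99, the share with CTCF excess 14.3% and that with a CpG 23.9%. With a flank that is not repeated these were 3.14, 17.2% and 19.9%, and CpG observed over expected 0.153. The repeated flank, 58.5%, became 10.2% at unique matches and 31.7% at 1e-07. At unique matches, introns held 47.6%, intergenic sequence 45.4%, exons 4.86% and promoters 2.17%. The lower CpG share outside peaks kept its direction at 1e-07, without the core, at flanks that are not repeated, and at unique matches. It also did so when the unique matches were split by a repeated flank. The differences in these sets ran from 12.3 to 20.5 percentage points. Over all matches with a repeated flank the direction was kept with a smaller difference, 5.76 percentage points (3.81 to 7.76). The alternatives on masked repeats were not run. No paired analysis was possible because each antibody has 1 library. With a mean of 0.594 IgG tags per window, depth does not allow a call at single matches with few tags.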
